A study of Mus musculus with 13 samples.

Results

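Histone genes were followed in epididymal fat and in prostate tumours of mice with and without p62 in adipocytes. The members were all genes whose symbol marks a histone, and they were split into replication-dependent genes (symbols beginning Hist1h to Hist4h) and replacement genes (symbols beginning H1f, H2af or H3f). The fat table held 81 of them among 23360 genes, 67 replication-dependent and 14 replacement, and the tumour table held 84 among 24421 genes, 68 replication-dependent and 16 replacement. Both tables shared 81, and H2afb2, H2afb3 and Hist1h2br stood only in the tumour table. Every mouse, KO or WT, carried the TRAMP transgene, which drives an oncogene in the prostate epithelium. The strain was C57BL/6, the diet regular and the age 30 to 35 weeks. The KO mice (TRAMP+;p62aP2KO) lacked p62, the autophagy receptor encoded by Sqstm1, in adipocytes, with recombination driven by the aP2 (Fabp4) promoter, which is also active in some cells other than adipocytes. The WT mice (TRAMP+;p62f/f) carried the floxed gene unrecombined. Fat was sequenced in 3 KO and 3 WT libraries and tumours in 3 KO and 4 WT libraries. Whether every library is a different mouse is not stated, so p-values cover only the spread between these libraries, which may be partly technical.

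Histones are the proteins around which DNA is wound: H2A, H2B, H3 and H4 form the core of the nucleosome, and H1 binds the DNA that links nucleosomes. Replication-dependent genes lie in clusters, are transcribed mostly in S phase and make mRNAs that end in a conserved stem-loop, bound by SLBP, in place of a poly(A) tail. Replacement histones are made throughout the cell cycle from polyadenylated mRNAs. Among them H2afx encodes H2A.X, which is phosphorylated at DNA breaks, H2afz and H2afv encode the 2 forms of H2A.Z, H3f3a and H3f3b encode the same H3.3 protein, H2afy and H2afy2 encode macroH2A, and H1f0 encodes the linker histone of differentiated cells. A library made from polyadenylated RNA is therefore made, by design, to keep replacement mRNAs and to lose most replication-dependent ones, and the labels state such a selection for both tissues.

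The sequences that set the classes apart are the 3′ stem-loops, shown here for members that the results below return to. Each is read 5′ to 3′ from the annotated transcript (GENCODE M21, GRCm38), and the 16 bases of the stem-loop are in capitals: 6 bases, a loop of 4, and 6 bases that pair with the first 6.
Hist3h2ba (chr11:58949344-58949373, plus strand): ccaaaGGCTCTTTTCAGAGCCaccttccaa
Hist1h1c (chr13:23739507-23739536, plus strand): caaaaGGCTCTTTTCAGAGCCaccactccc
Hist1h2bb (chr13:23747198-23747227, plus strand): ccaaaGGCTCTTTTAAGAGCCacccacact
Hist2h2ac (chr3:96220409-96220438, minus strand): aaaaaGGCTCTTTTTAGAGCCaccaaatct
Hist1h4d (chr13:23581945-23581974, plus strand): ccaaaGGCCCTTTTCAGGGCCactaccttc
H2afx (chr9:44335235-44335264, plus strand): acaaaGGCCCTTTTAAGGGCCaccacctcc
The first arm of the H2afx stem-loop, GGCCCT, is the one found in Hist1h4d and most other H4 genes with a stem-loop. H2afx was the only replacement member with such an element, 822 bases before the end of its longest annotated transcript. A stem-loop was found in 45 of the 68 replication-dependent members. Its absence from the others says only that these letters are not in the annotated transcript. A poly(A) signal (AATAAA or ATTAAA) lay within the last 40 bases of the annotated transcript of 17 of the 68 replication-dependent members and 9 of the 16 replacement members. Of the replication-dependent genes, 54 lie on chromosome 13, 10 on chromosome 3, 3 on chromosome 11 and 1 on chromosome 6.

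Promoters also differed between the classes. In the RefSeq table (GRCm38.p6, 250 bases before to 50 after the start), 61 replication-dependent and 12 replacement members were matched. CCAAT, searched on both strands, was in 85.2% of the replication-dependent and 66.7% of the replacement promoters, against 37.4% of all 32851 promoters. TATAAA was in 57.4% of the replication-dependent promoters, in none of the 12 replacement ones and in 13.6% of all. The octamer ATTTGCAT was in 21.3% of the replication-dependent promoters, in no replacement promoter and in 1.74% of all. By family the octamer was in 7 of 17 H2A and 6 of 16 H2B promoters, and in no H1, H3 or H4 promoter. Some H2A and H2B genes start back to back, as Hist1h2ag (22042944, minus strand) and Hist1h2bj (22043214, plus strand) do on chromosome 13. Their promoter windows can overlap, so 1 site may be counted in both families. CCAAT was in every H1, H2A, H2B and H3 promoter matched (6, 17, 16 and 10 genes) and in 3 of 12 H4 promoters. The 250 bases before the start are shown for 2 replication-dependent members that were tested in both tissues, with CCAAT or its complement ATTGG and TATAAA or its complement TTTATA in capitals. These matches are descriptions of the letters and no evidence of binding.
Hist3h2ba (chr11:58948661-58948910, plus strand): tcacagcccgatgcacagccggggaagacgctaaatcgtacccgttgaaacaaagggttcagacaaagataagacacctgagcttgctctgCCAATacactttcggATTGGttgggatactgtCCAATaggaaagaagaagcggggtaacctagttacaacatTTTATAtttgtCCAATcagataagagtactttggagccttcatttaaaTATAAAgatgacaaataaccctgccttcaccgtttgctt
Hist1h1b (chr13:21780626-21780875, minus strand): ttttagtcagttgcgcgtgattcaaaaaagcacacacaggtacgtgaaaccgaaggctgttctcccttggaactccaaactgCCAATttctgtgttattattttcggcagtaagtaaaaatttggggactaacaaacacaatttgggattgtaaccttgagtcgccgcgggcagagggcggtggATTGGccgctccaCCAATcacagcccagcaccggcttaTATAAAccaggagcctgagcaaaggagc

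By their deposited values the 2 tables are led by different classes of histone RNA. In tumours the replacement genes made up nearly all histone counts: replication-dependent genes gave 4.82%, 3.73% and 4.37% of them in KO 1 to 3, against 2.72%, 5.20%, 6.00% and 5.27% in WT 1 to 4. Per kilobase of transcript these shares were 6.44%, 5.18% and 6.09% in KO tumours, against 4.09%, 7.31%, 9.70% and 7.74% in WT tumours. Of the 68 replication-dependent genes, 52 never passed 10 counts in a tumour library, 13 of those being at 0 in all 7, while 10 of the 16 replacement genes averaged 100 or more counts. In fat the order was turned round, by values that weigh short genes beyond their length, as described below. Replication-dependent transcripts are mostly the shorter ones, so their share in fat may be overstated by an unknown amount. Replication-dependent genes held 94.9%, 97.8% and 90.3% of summed histone FPKM (fragments per kilobase and library size, the unit the fat values come closest to) in KO 1 to 3, against 91.2%, 87.3% and 84.0% in WT 1 to 3, and 58 of 67 averaged 10 FPKM or more.

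**Figure D1:**
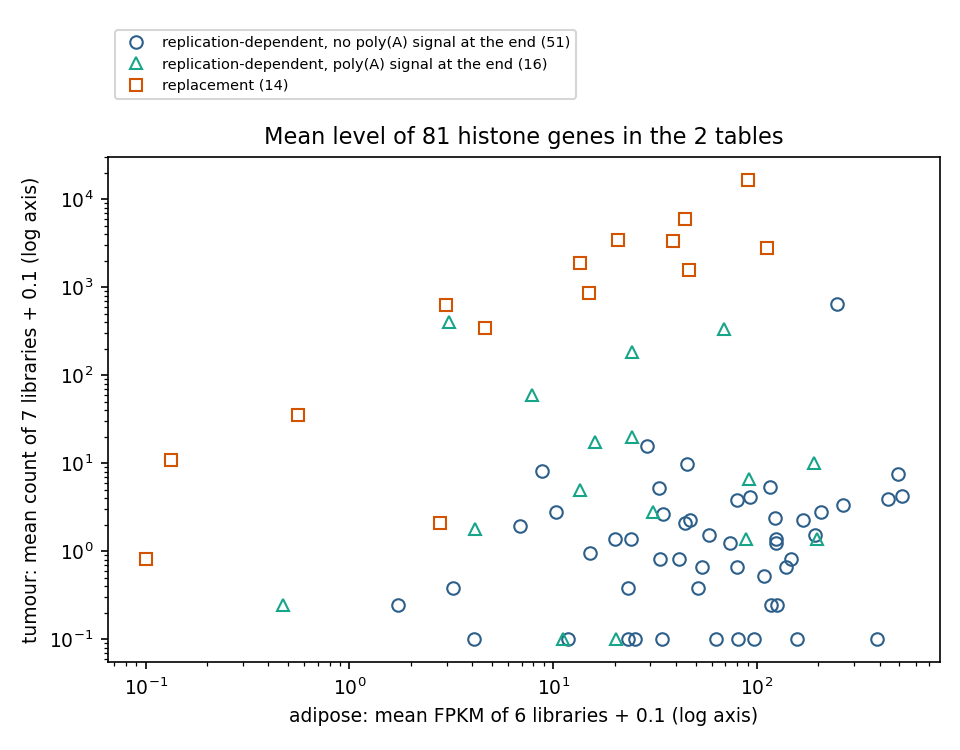
Mean level of the 81 histone genes present in both tables, adipose FPKM over 6 libraries against tumour count over 7 libraries, each plus 0.1, on log axes. The 10 replacement genes that averaged 100 or more counts lie at the top, the others lower, and most replication-dependent genes (51 without and 16 with a poly(A) signal in their last 40 bases) lie to the lower right, at 10 or more FPKM in fat and under 10 counts in tumours.

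Some genes with distinctive sequence were high in one table and low in the other, and the 2 shown were chosen after their values were seen. Others of the 9 replication-dependent genes with at least 90% distinctive windows did not differ so. Hist1h1c had 52.9 to 98.7 FPKM and 176 to 534 counts. Hist4h4 had 2.38 to 6.78 FPKM and 0 to 3 counts, and Hist1h1t 0 to 1.08 FPKM and 0 to 1 count. FPKM and counts are unlike units, so high and low refer to each table alone. Hist1h4d, which encodes H4 and in which 96.3% of the 75-base windows occur in no other annotated gene, had 585, 935 and 379 FPKM in KO fat and 472, 234 and 341 FPKM in WT fat. In tumours it had 9, 1 and 5 counts in KO and 4, 4, 24 and 5 counts in WT. Hist2h2be, an H2B gene all of whose windows are distinctive and whose annotated transcript ends 22 bases after the start of a poly(A) signal, went the other way. It had 3.30, 2.68 and 2.18 FPKM in KO fat and 4.10, 3.63 and 1.99 FPKM in WT fat, against 393, 400 and 319 counts in KO tumours and 324, 543, 292 and 563 counts in WT tumours. Of the 9 replication-dependent genes with enough counts to be tested in tumours, 6 have a poly(A) signal in their last 40 bases, against 11 of the 59 others.

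A pair of other RNAs that carry no poly(A) tail, chosen after their values were seen, were also high in the fat table and low in the tumour table. Rmrp, the RNA of RNase MRP, had 74353, 87482 and 73252 FPKM in KO fat and 36663, 31356 and 44027 FPKM in WT fat, but 2, 15 and 22 counts in KO tumours and 2, 10, 14 and 5 counts in WT tumours. Rpph1, the RNA of RNase P, had 40653, 72282 and 37595 FPKM in KO fat and 38258, 32692 and 34450 FPKM in WT fat, but between 7 and 27 counts in every tumour library. FPKM of such short RNAs run high and cannot be set against counts, so these values describe each table alone. Why the tables differ was not tested, and tissue and table cannot be told apart.

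The deposited files limit what can be compared. Tumour libraries held 17810397 to 32475051 counts. The depth of the fat libraries is not stated, but 7 H2B genes have values that are whole multiples, within 0.02 of a read, of one value per library: 0.987, 0.358 and 1.18 FPKM in KO 1 to 3 and 1.02, 0.888 and 0.992 FPKM in WT 1 to 3. If each step is 1 read, KO 2 was 2.86 times as deep as WT 1. Those 7 genes then held 721, 5502 and 142 reads in KO 1 to 3 and 186, 271 and 71 reads in WT 1 to 3. The step of Hist1h4k, an H4 gene, was 1.59 times the H2B step although its transcript is only 1.22 times shorter than that of Hist1h2bn, so fat values weigh short genes beyond their length and are not compared between families here. Many members share sequence: in 31 of 68 replication-dependent genes under 50% of the 75-base windows were distinctive, so the split of reads among copies is uncertain.

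Sqstm1, the deleted gene, went against the labels in the libraries numbered 2. It had 4.53, 54.5 and 2.58 FPKM in KO 1 to 3 and 73.6, 1.77 and 84.3 FPKM in WT 1 to 3 of fat. In tumours it had 8.97, 176 and 19.5 CPM (counts scaled to library size) in KO 1 to 3 and 173, 5.65, 167 and 151 CPM in WT 1 to 4. In both tissues the library labelled KO 2 was at the level of WT and the library labelled WT 2 at the level of KO. Groups were kept as labelled, and the counts and medians of members and the main lists are given also without the libraries numbered 2.

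In fat, replication-dependent histone mRNAs were higher in KO than in WT in 2 of the 3 KO libraries, and none passed the adjusted test. Of the 67 genes, 66 had a mean of at least 1 FPKM and were tested, and 63 of these had a positive log2 fold change, with a median of 1.63 on the log2(FPKM + 1) scale. Over all 13617 genes tested, 50.5% had a positive value, 49.5% a negative one, and the median was 0.0065. The smallest adjusted p of a replication-dependent gene was 0.192 (limma with Benjamini-Hochberg adjustment), and 0.00734% of all genes passed. At an unadjusted p under 0.05, 30 replication-dependent genes were higher and none lower, against 6.88% higher and 8.14% lower over all genes. The KO range lay above the WT range for 17 of the 66 genes and below it for none, against 9.87% and 11.3% of all genes. Hist3h2ba, Hist3h2bb-ps and Hist1h2aa averaged under 1 FPKM in WT and reached the minimum only through KO, which favours a positive value for them.

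The summed level shows where the spread lies. Replication-dependent genes together had 7407, 17855 and 3317 FPKM in KO 1 to 3, against 3747, 2989 and 2078 FPKM in WT 1 to 3. KO 1 and KO 2 were above every WT library and KO 3 lay inside the WT range. Gene by gene, KO 1 exceeded every WT library for 57 of the 66 genes and KO 2 for 62, but KO 3 for 21. KO 2, which was the highest library for 58 of the 66 genes, is also the deepest library by the value of 1 read and the one whose Sqstm1 goes against its label. Without both libraries numbered 2 the median was 1.16, with 60 of 66 genes higher, and the smallest adjusted p was 0.327 (limma). Of all 77 members tested in fat, 32 were higher at an unadjusted p under 0.05 with all libraries, but only 4 without both libraries numbered 2, when 5.93% of all genes were. Leaving out single libraries gave 12 (without WT 3) to 55 (without KO 3), and a median of the replication-dependent genes between 1.01 (without KO 2) and 2.36 (without KO 3).

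**Figure D2:**
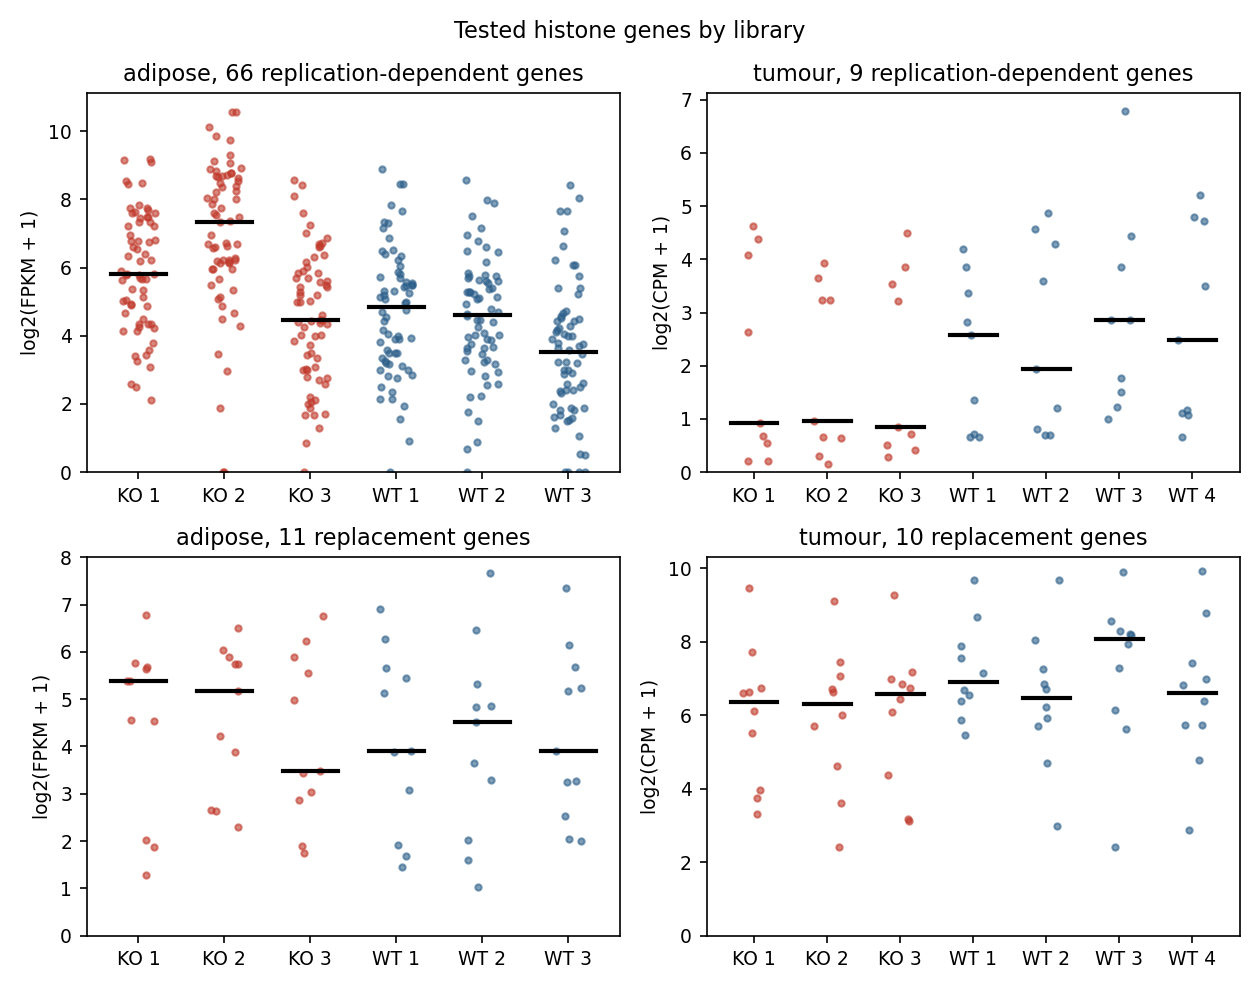
Levels of the tested histone genes in each library, as log2(FPKM + 1) in fat on the left and log2(CPM + 1) in tumours on the right, with replication-dependent genes in the top row and replacement genes in the bottom row. Points are genes, black lines their medians, and the KO libraries stand to the left of the WT libraries. In fat the replication-dependent medians of KO 1 and KO 2 stand above those of the WT libraries while that of KO 3 does not, and in tumours the replication-dependent medians of the 3 KO libraries all lie below those of the 4 WT libraries. Some genes reached the minimum for testing through only KO (fat) or only WT (tumours).

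The median was positive in all 5 protein families. The median log2 fold change was 2.19 over 18 H2A genes, 2.05 over 18 H2B genes, 1.40 over 5 H1 genes, 1.19 over 12 H3 genes and 1.14 over 13 H4 genes. Summed H2A genes had 2600, 6299 and 1046 FPKM in KO 1 to 3, against 1143, 760.2 and 615 FPKM in WT. Summed H2B genes had 1935, 5863 and 670.1 FPKM in KO 1 to 3, against 748, 957 and 492 FPKM in WT. KO 3 lay inside the WT range for both families. Summed H1 genes had 221, 327 and 208 FPKM in KO, all above the 148, 121 and 85.1 FPKM in WT. Summed H3 genes had 296, 955 and 145 FPKM in KO, against 187, 177 and 69.9 FPKM in WT. Summed H4 genes had 2355, 4410.5 and 1248 FPKM in KO, against 1521, 973 and 816 FPKM in WT.

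The 5 replication-dependent genes with the smallest p in fat all had KO ranges above the WT range. Hist3h2ba, an H2B gene on chromosome 11, had 9.74, 32.7 and 3.03 FPKM in KO, against 0.878, 0 and 0.426 FPKM in WT. Its log2 fold change was 3.03 ± 0.72 (SE; adjusted p = 0.192, limma), and 2.01 without both libraries numbered 2. Hist2h2ab, an H2A gene on chromosome 3, had 147, 97.6 and 47.4 FPKM in KO, against 38.4, 10.8 and 8.38 FPKM in WT, a log2 fold change of 2.45 ± 0.62. Hist1h1b, which encodes the linker histone H1.5, had 55.0, 73.0 and 19.7 FPKM in KO, against 10.9, 11.5 and 2.65 FPKM in WT, a log2 fold change of 2.43 ± 0.62. In these 3 genes even the lowest KO library, KO 3, stood above the highest WT library. Hist3h2ba averaged 0.435 FPKM in WT, under the minimum of 1 FPKM, so it was tested only through KO, which favours a positive value. Its WT values all lay below the value of 1 read of the H2B genes described above.

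Hist1h2be, an H2B gene, had 28.9, 60.7 and 21.1 FPKM in KO, against 13.8, 11.6 and 10.03 FPKM in WT. Its log2 fold change was 1.43 ± 0.38 (adjusted p = 0.209, limma). Hist1h2be overlaps the linker histone gene Hist1h1e on the same strand in the annotation, so reads of the 2 may be split either way. Hist1h2ba, the testis form of H2B, had 80.6, 301 and 43.9 FPKM in KO, against 34.2, 8.74 and 12.7 FPKM in WT, and was at 0 counts in all 7 tumour libraries. The adjusted p of these 5 genes ranged between 0.192 and 0.218 (limma).

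The 10 most abundant replication-dependent genes of fat were less even. Hist2h2ac, an H2A gene, had 573, 1495 and 345 FPKM in KO, against 349, 124 and 200.4 FPKM in WT. Hist2h2bb, an H2B gene with no distinctive window, had 545, 1524 and 104 FPKM in KO, against 162, 182 and 134 FPKM in WT. Hist1h2bb had 215, 1118 and 63.4 FPKM in KO, against 84.1, 70.1 and 36.1 FPKM in WT. In all 3 the KO 2 library was the highest and KO 3 lay inside the WT range or below it.

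Hist2h2aa1, an H2A gene that shares all its windows with other genes, had 348, 853 and 275 FPKM in KO, against 346, 249.1 and 262 FPKM in WT. Among the H4 genes, Hist1h4b had 354, 479 and 129 FPKM in KO, against 141, 86.1 and 41.0 FPKM in WT. Hist1h4j had 373, 432 and 95.3 FPKM in KO, against 115, 96.0 and 66.2 FPKM in WT. KO 1 and KO 2 were high in these H4 genes and KO 3 was not. Hist1h4h had 228, 457 and 117 FPKM in KO, against 157, 109.7 and 73.5 FPKM in WT. Hist1h4c had 122, 413 and 151 FPKM in KO, against 229, 143 and 97.8 FPKM in WT, with KO 1 and KO 3 inside the WT range.

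A few replication-dependent genes did not share the difference. Hist1h2bc, an H2B gene that was among the 10 most abundant, had 177, 331 and 192 FPKM in KO, against 199.9, 375 and 201 FPKM in WT, a log2 fold change of -0.14 ± 0.38. The libraries numbered 2 were the high ones in both groups. Hist2h2be and Hist2h2aa2 had log2 fold changes of -0.16 and -0.74, and the other 63 were positive, Hist1h1c with 0.29 among them. Hist1h2bc, Hist2h2be and Hist1h1c were 3 of the 4 replication-dependent genes that averaged 100 or more counts in tumours.

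Replacement histones in fat had smaller fold changes, and the ranges of KO and WT did not overlap for 4 of them, H2afx, H2afj, H3f3b (higher) and H3f3a (lower), against 9.87% higher and 11.3% lower of all genes. Their summed level was 395, 402 and 355 FPKM in KO, against 363, 434 and 397 FPKM in WT. Of 14 genes 11 were tested, 10 of which had a positive log2 fold change, with a median of 0.21. Rescaling the libraries to the same sum left 9 positive, with H2afy2 at -0.012. Without both libraries numbered 2, 7 were positive and 4 negative, with a median of 0.088. The smallest adjusted p was 0.173 (limma).

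H2afx had 22.3, 35.3 and 10.2 FPKM in KO fat, against 7.45, 8.82 and 4.77 FPKM in WT fat. All 3 KO libraries were above the highest WT library, KO 3 by the least. Its log2 fold change was 1.44 ± 0.44 (adjusted p = 0.233, limma), and 1.21 without both libraries numbered 2. H2afj, which encodes an H2A form, had 53.4, 58.2 and 58.5 FPKM in KO, against 42.4, 27.6 and 36.6 FPKM in WT, a log2 fold change of 0.68 ± 0.23.

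The 2 genes of H3.3 differed in opposite directions in fat. H3f3a had 48.8, 64.6 and 73.6 FPKM in KO, against 119, 203 and 163 FPKM in WT, a log2 fold change of -1.35 ± 0.29 (adjusted p = 0.173, limma), and -1.20 without both libraries numbered 2. H3f3b had 109.7, 90.3 and 107 FPKM in KO, against 75.9, 87.6 and 70.0 FPKM in WT, a log2 fold change of 0.39 ± 0.23. Neither pair of ranges overlapped. H3f3a had the smallest p of all members in fat, the annotation places 2 genes on the opposite strand over it, and 72.1% of its windows are distinctive.

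The other replacement genes of fat overlapped between groups. H2afz had 49.9, 17.6 and 7.26 FPKM in KO, against 13.9, 21.7 and 13.9 FPKM in WT, with KO 1 alone above and KO 3 below the WT range. H2afv had 22.6, 13.7 and 9.85 FPKM in KO, against 14.1, 11.6 and 8.69 FPKM in WT. H2afy had 40.7, 52.5 and 30.6 FPKM in KO, against 33.9, 39.2 and 35.2 FPKM in WT. H1f0 was near even, with 40.8, 52.7 and 46.0 FPKM in KO, against 49.4, 27.8 and 50.2 FPKM in WT. H1fx, which encodes linker histone H1x, had 1.44, 5.22 and 2.70 FPKM in KO, against 2.77, 2.04 and 3.10 FPKM in WT. H2afy2 had 3.04, 3.91 and 6.34 FPKM in KO, against 2.21, 3.08 and 8.54 FPKM in WT. H2afy3, annotated as a processed pseudogene, had 2.69, 5.33 and 2.34 FPKM in KO, against 1.72, 1.03 and 3.02 FPKM in WT. The adjusted p of these 7 genes ranged between 0.486 and 0.954 (limma).

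**Figure D3:**
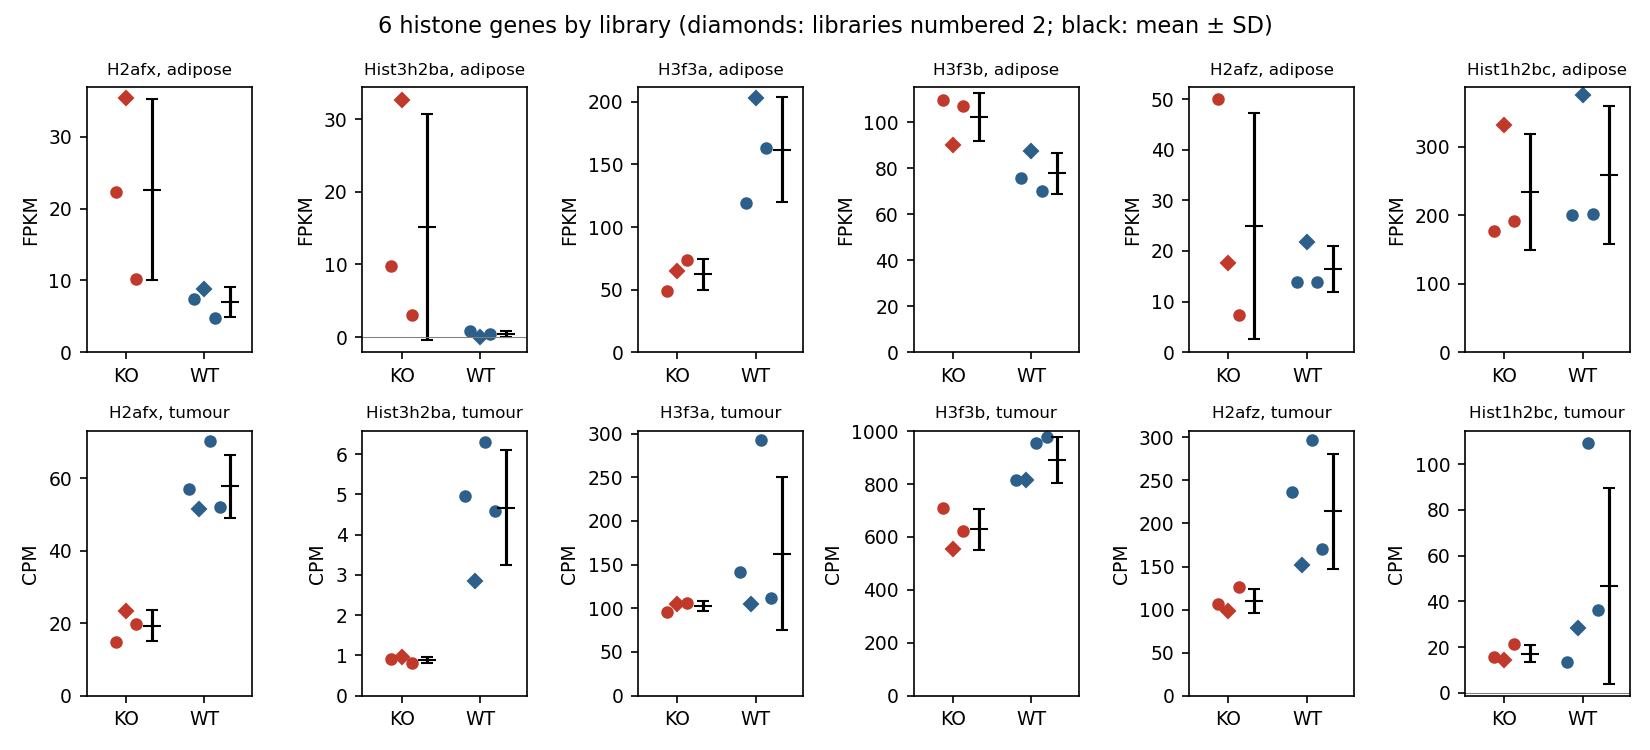
The 6 histone genes H2afx, Hist3h2ba, H3f3a, H3f3b, H2afz and Hist1h2bc by library, FPKM in fat above and CPM in tumours below, KO in red on the left and WT in blue on the right, with the mean and SD in black. Diamonds mark the libraries numbered 2. H2afx and Hist3h2ba are above WT in KO fat and below WT in KO tumours with no overlap, and H3f3a is below WT in KO fat.

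In tumours every tested histone gene was lower in KO than in WT by its fold change, and none passed the adjusted test. A total of 19 of 84 members had enough counts, 9 replication-dependent and 10 replacement, and all 19 log2 fold changes were negative, against 56.8% negative and 43.2% positive of the 15117 genes tested. With limma voom on the same counts H2afj alone was positive, at 0.12. Hist1h1b, Hist1h1e and Hist1h4i reached the minimum through their WT libraries, which favours a negative value for them. With no filter, 47 of 55 replication-dependent genes were lower and 8 higher. Of 14 replacement genes 13 were then lower and 1 higher, against 12340 lower of all 20713 genes. At a minimum mean of 50 counts 5 replication-dependent genes remained, all lower, with a median of -0.54. The median was -1.44 over the 9 and -1.07 over the 10, beside -0.07 over all genes. The smallest adjusted p was 0.193 (edgeR's quasi-likelihood test), as for the smallest of all genes, and 0% of all genes passed. At an unadjusted p under 0.05, 9 members were lower and none higher, against 6.26% and 6.17% of all genes. The KO range lay below the WT range for 9 members and above it for none, against 7.05% and 6.69%. DESeq2 on the same counts passed 5 members, H2afx, Hist3h2ba, H1fx, H1f0 and H2afz, all lower, against 5.11% of all genes (adjusted p between 1.11e-05 and 0.0470, DESeq2). Without both libraries numbered 2, all 10 replacement genes were lower, with a median of -1.17, and 11 of the 12 replication-dependent genes that then had enough counts were lower and 1 higher, with a median of -1.52. Of those that only then had enough, Hist1h2bp had 0 counts in every KO library and, like Hist1h4h, passed through WT. A lower value was therefore favoured for both, and the larger set is no further support. The smallest adjusted p was then 0.388 over the replacement and 0.531 over the replication-dependent genes (edgeR).

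H2afx had the smallest p of all members. It had 14.8, 23.4 and 19.8 CPM in KO tumours, against 57.1, 51.6, 70.2 and 52.0 CPM in WT tumours. Every KO library was below the lowest WT library, and the libraries numbered 2 lay with the groups they are labelled as. Its log2 fold change was -1.58 ± 0.24 (adjusted p = 0.193, edgeR), and -1.79 without both libraries numbered 2.

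Linker and H2A.Z genes followed. H1fx had 12.5, 11.2 and 7.70 CPM in KO, against 92.1, 25.01, 48.4 and 26.3 CPM in WT, a log2 fold change of -2.20 ± 0.52. H1f0 had 209, 173 and 114 CPM in KO, against 406, 265, 377 and 439 CPM in WT, a log2 fold change of -1.17 ± 0.30. H2afz had 106, 97.8 and 126 CPM in KO, against 237, 151, 297 and 171 CPM in WT, a log2 fold change of -0.96 ± 0.28. In each of the 3 the groups did not overlap. H2afv had 45.0, 51.7 and 66.8 CPM in KO, against 102, 74.3, 247 and 82.0 CPM in WT, and H3f3b had 708, 556 and 621 CPM in KO, against 814, 814, 957 and 977 CPM in WT, again without overlap. Reads of H1fx and its antisense gene can be told apart only if the counting used the strand, which is not stated.

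The other replacement genes of tumours overlapped between groups. H3f3a had 95.7, 105 and 106 CPM in KO, against 141, 105, 292 and 111 CPM in WT. H2afy had 99.0, 135 and 145 CPM in KO, against 187, 114, 311 and 127 CPM in WT. WT 3 was the highest library for both. H2afj had 68.4, 63.6 and 85.9 CPM in KO, against 42.9, 59.4, 154 and 51.9 CPM in WT, and without WT 3 its log2 fold change was 0.50 in place of -0.08. H2afy2 had 8.97, 4.30 and 7.995 CPM in KO, against 82.4, 6.98, 4.32 and 6.36 CPM in WT, and without WT 1 its log2 fold change was 0.26 in place of -1.82.

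Among replication-dependent genes in tumours, Hist3h2ba had the smallest p. It had 18, 33 and 19 counts in KO, against 93, 68, 89 and 96 counts in WT, or 0.907, 0.958 and 0.804 CPM against 4.96, 2.84, 6.30 and 4.59 CPM. Its log2 fold change was -2.38 ± 0.47 (adjusted p = 0.193, edgeR), and -2.61 without both libraries numbered 2. Hist1h1e, a linker histone gene, had 3, 4 and 8 counts in KO, against 12, 15, 14 and 12 counts in WT. Hist1h4i, an H4 gene, had 3, 19 and 10 counts in KO, against 29, 18, 19 and 23 counts in WT, and its groups did not overlap as CPM (0.151 to 0.551 CPM in KO, against 0.753 to 1.55 CPM in WT). Hist1h1b had 12, 8 and 5 counts in KO, against 11, 15, 34 and 24 counts in WT. At 3 to 34 counts a library these 3 genes rest on few reads, and they reached the minimum for testing through their WT libraries.

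Hist1h2bc had 15.8, 14.2 and 21.6 CPM in KO tumours, against 13.4, 28.3, 109 and 36.1 CPM in WT tumours, with WT 3 far above the rest. Hist1h2be had 0.454, 0.580 and 0.635 CPM in KO, against 0.586, 1.30, 1.84 and 1.24 CPM in WT. Hist2h2be had 19.8, 11.6 and 13.5 CPM in KO, against 17.3, 22.7, 20.7 and 26.9 CPM in WT. The groups overlapped in all 3, WT 1 being the lowest WT library each time. Hist1h1c had 23.8, 8.45 and 10.6 CPM in KO, against 9.38, 18.7, 13.5 and 25.5 CPM in WT, and Hist3h2a had 5.19, 8.47 and 8.25 CPM in KO, against 6.08, 11.04, 6.30 and 10.3 CPM in WT. The last 2 overlapped over most of their range, and Hist3h2a lies inside the gene Trim17 on the same strand, so its reads are uncertain. Of the 59 replication-dependent genes that were not tested in tumours, Hist1h4h had the most counts, with 6, 8 and 5 in KO and 4, 6, 28 and 13 in WT.

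H1fnt and H2afb1, 2 of the germ-cell histone genes, named after their values were seen, had most of their tumour reads in WT 4. Other germ-cell members did not follow. Hist1h2ba, H2afb2 and H2afb3 were at 0 counts in every tumour library. Hist1h1t had 1 count, in KO 2, Hist1h2aa 1 count, in KO 3, and H1foo 5 counts, in KO 3. H1fnt, which encodes the linker histone of spermatids, had 1, 0 and 7 counts in KO, against 0, 3, 0 and 237 counts in WT, and H2afb1 had 0, 0 and 2 counts in KO, against 0, 0, 0 and 73 counts in WT. The 8 germ-cell markers summed to 3.38, 4.12 and 12.6 CPM in KO tumours, against 4.48, 7.32, 13.4 and 346 CPM in WT tumours, WT 4 being again the high library. In fat H1fnt and H2afb1 were highest in KO 2: H1fnt had 0, 2.57 and 0.188 FPKM in KO and 0 in all 3 WT libraries, and H2afb1 had 0.199 FPKM in KO 2 and 0 elsewhere. The 8 germ-cell markers in fat summed to 17.2, 121 and 52.3 FPKM in KO, against 32.1, 54.2 and 63.2 FPKM in WT. The part of the markers in these values was not tested.

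For 16 of the 19 members tested in both tissues the fold change of KO over WT was positive in fat and negative in tumours (edgeR), against 26.9% of all genes tested in both. On the log2(CPM + 1) scale in tumours H2afj was positive, which left 15 of 19 members, against 24.3% of all genes. On log2 values plus 1, in FPKM for fat and CPM for tumours, the tumour effect minus the fat effect was negative for all 9 replication-dependent genes and for 9 of 10 replacement genes, H3f3a being the exception with 0.82, against 49.0% of the 12390 genes tested. No member passed (smallest adjusted p = 0.0547, limma), as 0% of all genes did. At an unadjusted p under 0.05, 10 members were negative and none positive, against 5.79% and 5.92% of all genes. Hist1h1b, Hist1h1e and Hist1h4i reached the tumour minimum through WT, and Hist3h2ba reached the fat minimum only through KO. Both favour a negative value for these genes.

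H2afx had a tumour effect minus fat effect of -2.98 ± 0.51 (SE; adjusted p = 0.0547, limma). Hist3h2ba had -4.58 ± 0.80 with the same adjusted p, and Hist1h1b had -3.07 ± 0.75 (adjusted p = 0.0926, limma). Without KO 3 of fat, 5 members passed, H2afx, Hist3h2ba, Hist1h1b, Hist1h4i and Hist1h2be, against 1.69% of all genes, and without KO 2 of the tumours H2afx did, against 0.291%. Without the 4 libraries numbered 2 the values were -2.95 for H2afx and -3.76 for Hist3h2ba, both with an adjusted p of 0.165 (limma). H2afx, Hist3h2ba and H3f3b were above WT in every KO fat library and below WT in every KO tumour, as were 0.694% of all genes tested in both.

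**Figure D4:**
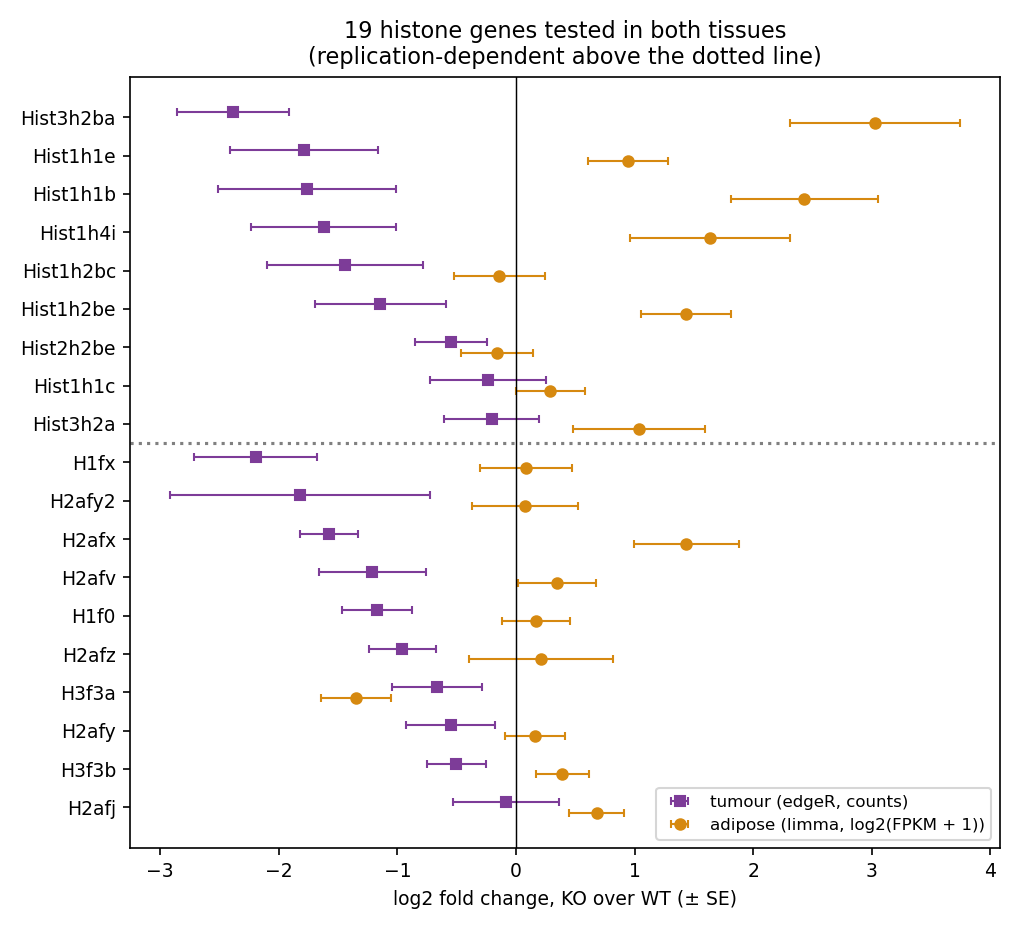
Log2 fold changes of KO over WT with their standard errors for the 19 histone genes tested in both tissues, tumours as purple squares and fat as orange circles, with replication-dependent genes above the dotted line. All tumour values are below 0, and all fat values but those of Hist1h2bc, Hist2h2be and H3f3a are above 0.

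The genes that supply histones to chromatin were taken as a list of 40: factors of histone mRNA ends, chaperones and exchange complexes. In fat 32 of 39 tested had a positive log2 fold change and 7 a negative one, with a median of 0.32, and none passed. The split was 30 positive and 9 negative without both libraries numbered 2, with a median of 0.28. Chaf1b and Chaf1a, subunits of the assembly factor CAF-1, led: Chaf1b had 11.1, 9.23 and 6.41 FPKM in KO, against 1.07, 3.26 and 0.312 FPKM in WT, and Chaf1a had 12.3, 11.8 and 5.16 FPKM in KO, against 3.01, 3.08 and 3.27 FPKM in WT. Both, named for their small p, were above WT in every KO library. Of the 39 supply genes, 9 lay above without overlap and 1 below, against 9.87% and 11.3% of all genes. At an unadjusted p under 0.05, 4 were higher and 0 lower, against 6.88% and 8.14% of all genes. Hinfp, a factor of H4 gene transcription, had 5.88, 6.39 and 7.66 FPKM in KO, against 4.45, 2.18 and 3.28 FPKM in WT. Supt6, a chaperone of elongating polymerase, Mcm2, the helicase subunit that binds H3 and H4, and Anp32e, which removes H2A.Z, had log2 fold changes of 0.55, 1.05 and 0.50. Slbp, which binds the stem-loop, had 23.2, 9.74 and 11.4 FPKM in KO, against 9.12, 9.71 and 8.84 FPKM in WT, a log2 fold change of 0.53 ± 0.32.

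In tumours 33 of the 40 supply genes had a negative log2 fold change and 7 a positive one, with a median of -0.49, and none passed. The split was 34 negative and 6 positive without both libraries numbered 2, with a median of -0.63. Asf1b, the chaperone of new H3 and H4, had 6.10, 12.1 and 2.96 CPM in KO, against 43.2, 29.1, 39.6 and 27.0 CPM in WT. Its log2 fold change was -2.30 ± 0.49 (adjusted p = 0.193, edgeR). Cenpa, the centromeric H3, which the symbol rule does not take in, had 11.9, 16.8 and 4.23 CPM in KO, against 83.6, 35.3, 79.4 and 35.7 CPM in WT. Nasp, a chaperone that holds spare histones, had 61.6, 96.7 and 65.5 CPM in KO, against 279, 127, 246 and 169 CPM in WT. Chaf1a, Chaf1b and Casp8ap2, a factor of histone mRNA processing, had log2 fold changes of -1.83, -1.55 and -1.16. Slbp had 40.6, 81.7 and 46.0 CPM in KO, against 116, 104, 101 and 104 CPM in WT, a log2 fold change of -0.92 ± 0.27. For all 7 of these genes the KO libraries lay below the WT libraries, but all except Slbp were named for their small p in this comparison. Of the 40 supply genes, 15 lay below without overlap and 1 above, against 7.05% and 6.69% of all genes.

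Markers of proliferation had fold changes of the same sign as most histone genes in each tissue. In fat all 22 had a positive log2 fold change, against 50.5% of all genes, with a median of 0.95 (0.85 without both libraries numbered 2), and none passed. At an unadjusted p under 0.05, 4 were higher and 0 lower, against 6.88% and 8.14% of all genes. The KO range lay above the WT range for only 1 of the 22, against 9.87% of all genes. The 22 summed to 342, 325 and 80.7 FPKM in KO, against 85.0, 135 and 66.5 FPKM in WT. Mki67 had 50.6, 83.1 and 5.94 FPKM in KO, against 9.26, 17.99 and 2.52 FPKM in WT, and Pcna had 78.8, 46.2 and 20.7 FPKM in KO, against 15.8, 31.5 and 18.001 FPKM in WT. As with the replication-dependent genes, KO 1 and KO 2 were high and KO 3 was inside the WT range. In tumours all 22 had a negative log2 fold change, with a median of -1.97 (-2.64 without both libraries numbered 2). All 22 were at an unadjusted p under 0.05, against 6.26% lower of all genes, and none passed after adjustment. They summed to 703, 1478 and 537 CPM in KO, against 4870.4, 2747, 2679 and 2675 CPM in WT. Mki67 had 62.8, 98.7 and 15.99 CPM in KO, against 1072, 374, 257 and 331 CPM in WT, and Pcna had 73.5, 140.4 and 63.8 CPM in KO, against 261, 224, 392.4 and 232 CPM in WT. Their part in the histone values was not tested, and in such bulk samples fewer cells of a type and less RNA per cell cannot be told apart.

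Markers of cell types also differed between groups. In fat the 8 adipocyte markers, all detected, summed to 8899 to 15082 FPKM in KO, against 14710 to 16544 FPKM in WT. Of the 8, 7 had a negative log2 fold change, with a median over all 8 of -0.85 (-1.17 without both libraries numbered 2). The 8 macrophage markers in the table summed to 2999 to 7523 FPKM in KO, against 947 to 3568 FPKM in WT. All 8 had a positive log2 fold change, with a median of 1.37 (1.99 without both libraries numbered 2). Neuroendocrine markers in fat summed to 35.8, 121 and 23.3 FPKM in KO, against 8.70, 16.6 and 10.2 FPKM in WT, all 7 positive with a median of 1.86, KO 2 being the highest. Of these 5 were positive and 2 negative without both libraries numbered 2, with a median of 0.69. In tumours the 9 macrophage markers summed to 475 to 2505 CPM in KO, against 292 to 317 CPM in WT, all 9 positive with a median of 1.92 (0.89 without both libraries numbered 2). The 8 prostate epithelial markers summed to 3563 to 6172 CPM in KO tumours, against 4907 to 15945 CPM in WT, 2 positive and 6 negative (6 positive and 2 negative without both libraries numbered 2). Neuroendocrine markers summed to 55.1 to 76.0 CPM in KO tumours, against 48.9 to 65.5 CPM in WT 2 to 4 and 1029 CPM in WT 1, and all 7 were negative. The 7 epididymis and seminal vesicle markers summed to 46887, 7.81 and 196 CPM in KO tumours, against 3190, 82.7, 153 and 32.2 CPM in WT. The 8 endothelial and stromal markers summed to 1532 to 8237 CPM in KO tumours, KO 2 being the highest, against 713 to 1330.4 CPM in WT. All 8 were positive, with a median of 1.15 (0.52 without both libraries numbered 2). The 10 lymphocyte markers summed to 305 to 1111 CPM in KO tumours, against 87.5 to 845 CPM in WT. All 10 were positive, with a median of 0.80 (0.71 without both libraries numbered 2). No marker passed the adjusted test in either tissue, and their part in the histone values was not tested.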

How the data were processed

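RNA was sequenced from flash-frozen epididymal fat and prostate tumours as single-end 75-base reads of directional libraries made after poly(A) selection, per the labels' protocols. STAR, DESeq2 and the mm10 build appear, without their role, in the submitters' processing notes. Which counting program and annotation were used, and whether strand was, is not given in the sources used here. Tumour values were deposited as raw counts. The fat table was deposited with no unit named, and its values behave most like FPKM with a further scaling between libraries. Members, lists and tests were chosen with earlier results of these data known. Fat was tested with limma 3.58.1 (trend) on log2(FPKM + 1) where the mean over libraries reached 1 FPKM. Fold changes on that scale understate those of low genes. Tumours were tested with edgeR 4.0.16 (quasi-likelihood test, TMM scaling, filterByExpr at 10 counts) in R 4.3.3. The tissue difference was tested with limma on log2(value + 1) over all 4 groups. Adjustment was by Benjamini-Hochberg over all genes tested, at 0.05. Named were all tested replacement genes, the 10 most abundant replication-dependent genes of each table (in tumours 9 tested and Hist1h4h) and the 5 with the smallest p in each comparison, 6 supply genes by p, Slbp, Mki67 and Pcna. The fits were tested on simulated data. DESeq2 1.42.0, limma voom, other scalings, filters and pseudocounts, the replicate number as a block and each library left out were tried as alternatives.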

Additional observations from a re-analysis of the deposited data

Results flagged for a closer look

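In 16 of the 65 histone genes whose WT tumour values were not all alike, a single WT tumour library lay far from the others by Dixon's criterion. For continuous values it marks about 1 in 20 groups, here 3.25, by chance. That rate does not hold at few reads, where 1 library with a read beside others at 0 is always marked. Hist1h4n, with 1 count in WT 2, and Hist1h2ab, with 1 count in WT 1, are such cases. The 16 can therefore not be set against 3.25. The genes share the same 4 libraries. Of the 4 that had enough counts to be tested, H2afj had 154 CPM, H2afv 247 CPM and Hist1h1e 0.991 CPM in WT 3, and H2afy2 had 82.4 CPM in WT 1. The other 12 were not tested. H1fnt had 11.3 CPM, H2afb1 3.49 CPM, Hist1h4a 0.430 CPM and Hist1h2ag 0.0956 CPM in WT 4. Hist1h4d had 1.70 CPM, Hist1h4b 0.708 CPM, Hist2h3b 0.142 CPM and Hist3h2bb-ps 0.0708 CPM in WT 3. Hist1h3h had 0.107 CPM and Hist1h2ab 0.0533 CPM in WT 1. Hist1h4n had 0.0418 CPM and Hist1h4j 0 CPM in WT 2, which for Hist1h4j was the lowest value.

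For 3 genes every KO library was above WT in fat and below WT in tumours. Of these, Hist3h2ba was near 0 in WT fat (0.878, 0 and 0.426 FPKM) and reached the minimum for testing there only through KO. The tumour effect minus the fat effect was -2.98 for H2afx and -4.58 for Hist3h2ba (both adjusted p = 0.0547, limma), and -0.90 for H3f3b (adjusted p = 0.231, limma). None passed the adjusted test.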

How the results depend on the processing

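No histone gene passed in fat under any alternative, nor in tumours except the 5 of DESeq2. The median of replacement genes in fat was 0.075 with libraries rescaled to the same sum and 0.088 without both libraries numbered 2, which left 4 members higher at an unadjusted p under 0.05 in place of 32. Rescaling lowered the median of all fat genes to -0.10, raised their calls to 10 in place of 1 and gave 429 higher and 832 lower genes at an unadjusted p under 0.05, in place of 937 and 1108. In tumours the replication-dependent median was -1.02 with voom, -1.69 with no filter and -0.54 at a minimum mean of 50 counts. At a minimum mean of 5 the tissue difference had 4 negative members at an unadjusted p under 0.05 in place of 10. Among the genes named in the text, directions reversed for H2afy2 in fat (-0.012 rescaled), for H1f0 (-0.20), H1fx (-0.39), H2afy2 (-0.022) and Hist1h4c (-0.14) in fat and Hist1h1c (0.10) in tumours without both libraries numbered 2, and for H2afj in tumours with voom (0.12). Without both libraries numbered 2, 8 of all 77 members tested in fat reversed, 4 of them not named: Hist1h3g, Hist2h2aa2, Hist2h4 and Hist4h4. The cause was not tested.

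Leaving out 1 library at a time gave 12 (without WT 3) to 55 (without KO 3) members higher at an unadjusted p under 0.05 in fat, with 17 without KO 1 and 15 without KO 2, a replication-dependent median of 1.01 to 2.36 and a replacement median of 0.26 to 0.36. In tumours it gave 0 to 1 higher members, a replication-dependent median of -1.62 to -0.89 and a replacement median of -1.20 to -0.71, both closest to 0 without WT 3. The tissue difference had 0 to 5 members passing and 0 to 1 positive at an unadjusted p under 0.05. Fold changes of named genes crossed 0 in fat for H1f0 (-0.10 to 0.31), H1fx (-0.27 to 0.41), H2afy (-0.029 to 0.35), H2afy2 (-0.25 to 0.54), H2afz (-0.47 to 0.84), Hist1h2bc (-0.42 to 0.16) and Hist1h4c (-0.11 to 0.76). Without KO 2, 6 of all 77 members reversed, with Hist1h3g, Hist1h3h and Hist2h3c1 among them. In tumours named genes crossed 0 for H2afj (-0.28 to 0.50), H2afy2 (-2.17 to 0.26) and Hist1h1c (-0.82 to 0.042), and in the tissue difference for H2afy2 (-1.24 to 0.13, positive without WT 1 of the tumours).

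Same-numbered libraries did not pair throughout (correlations of -0.05, 0.15 and 0.15 in fat and 0.16, 0.08 and 0.32 in tumours). With the replicate number as a block, 0 members passed, 48 were higher in fat, 7 lower in tumours and 9 negative in the tissue difference at an unadjusted p under 0.05, and the replication-dependent median in tumours was -1.04. In tumours 59 of 68 replication-dependent genes had too few counts to be tested, and why was not tested.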
